A study of Mus musculus with 6 samples.

Results

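The genes described here are 10 members of the NF-kB system, the transcription factor family that carries inflammatory signals to the nucleus. They were compared in the gastric neck region of Cldn18 knockout and wild-type mice. They were taken by symbol from a table of 38720 rows. Each of the 10 had 1 row, and each passed the filter on low values (at least 10 normalized counts in at least 3 of the 6 libraries), as 17432 genes did in all. Cldn18 encodes claudin 18, which seals the junctions between gastric epithelial cells. The knockout group was 3 libraries from CLDN18-/- mice and the wild-type group was 3 libraries from CLDN18+/+ mice, all of strain B6:129S5. In both, the neck region of the gastric corpus was taken from unfixed frozen sections by laser capture microdissection. The sample labels give an age of 7 weeks in both groups, whereas the text on the series design gives 7 days, so the age is uncertain. Which part of Cldn18 was deleted is not stated in those labels. The labels do not tie the libraries to separate animals, so p-values measure the spread between these libraries, which may be technical.

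As background, NF-kB proteins bind DNA in pairs drawn from the products of Nfkb1, Nfkb2, Rel, Rela and Relb. In resting cells IkB proteins, of which the product of Nfkbia is the best known, hold the pairs in the cytoplasm. IkB kinase marks IkB for destruction and frees them. A slower, second branch works through the kinase NIK and the processing of the Nfkb2 product. Many NF-kB targets feed back on the pathway, among them Nfkbia itself, Tnfaip3 and Birc3, and Bcl3 and Nfkbiz encode IkB-like proteins that act in the nucleus.

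Matches to the kB consensus, the 10-base site to which NF-kB pairs bind, show where members carry the sequence of the pathway at their own starts. Of the 10 members, 7 had an entry in the RefSeq promoter table (GRCm38.p6, which has the coordinates of mm10), with 250 bases before and 50 after each annotated start. Searched on both strands, with overlapping matches allowed, 5 of these 7 genes held the consensus in some window, against 5.14% of the 27025 genes in the table. Counted by window it was 7 of 10 windows, against 4.51% of 32851. The members were chosen as pathway genes, several of them known NF-kB targets, so this excess could be foreseen from the choice. Nfkb2 and Tnfaip3 had several windows each, and overlapping windows of Nfkb2 shared a match, so the 7 windows are not separate. In the 30-base stretches below, written on the strand of the gene, capitals mark the match or overlapping matches. Positions count from the annotated start, with no position 0.
Bcl3, 3 to 12 after the start, chr7:19822734-19822763, minus strand: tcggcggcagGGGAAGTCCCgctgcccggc
Nfkb2, 39 to 30 before the start (the overlapping match reaches 1 base further), chr19:46304688-46304717, plus strand: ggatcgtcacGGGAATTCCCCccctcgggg
Nfkb2, 11 to 2 before the same start, chr19:46304716-46304745, plus strand: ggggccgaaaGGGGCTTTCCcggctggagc
Rel, 92 to 83 before the start (the overlapping match reaches 1 base further), chr11:23771042-23771071, minus strand: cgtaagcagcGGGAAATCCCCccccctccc
Nfkbia, 29 to 20 before the start, chr12:55492657-55492686, minus strand: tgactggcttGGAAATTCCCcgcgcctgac
Tnfaip3, 12 to 3 before the start, chr10:19015403-19015432, minus strand: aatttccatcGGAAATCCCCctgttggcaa

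The 250 bases before the start are given for Nfkb2 and Nfkbia, since both hold a match close to the start. Their mean levels stood on opposite sides of wild-type in the knockout, but Nfkbia was not called (limma adjusted p = 0.0785) and its groups overlapped.
Nfkb2, chr19:46304487-46304736, plus strand: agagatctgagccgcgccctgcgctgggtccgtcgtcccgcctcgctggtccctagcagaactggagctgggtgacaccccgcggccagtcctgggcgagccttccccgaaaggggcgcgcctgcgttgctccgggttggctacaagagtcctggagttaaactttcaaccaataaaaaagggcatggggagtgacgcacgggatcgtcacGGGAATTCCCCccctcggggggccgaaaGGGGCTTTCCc
Nfkbia, chr12:55492648-55492897, minus strand: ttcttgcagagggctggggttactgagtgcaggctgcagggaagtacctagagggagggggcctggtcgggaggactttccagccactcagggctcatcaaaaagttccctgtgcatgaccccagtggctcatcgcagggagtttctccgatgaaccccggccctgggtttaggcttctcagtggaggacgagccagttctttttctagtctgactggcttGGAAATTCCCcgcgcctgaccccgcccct
Further matches lay at other annotated starts of Nfkb2 and further upstream of Tnfaip3. Neither Rela nor Birc3 held the consensus in its window, and Nfkb1, Relb and Nfkbiz had no entry. Over the whole table the share of higher genes was close with and without a match: 26.7% of 753 tested genes with a match were called higher in the knockout, against 25.7% of 10847 without one. A match is a run of letters and not a measured site of binding.

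The libraries held 44537204 to 52842813 reads on genes in the knockout and 37673283 to 44766596 in wild-type. A single gene, Gm26924, took 38.6% to 45.4% of these reads in each library, so fewer reads were left for the other genes and percentages of reads include it. Every member rested on 128 to 3879 reads in each library. Cldn18 itself had 13035, 16798 and 15818 normalized counts (reads divided by 1 size factor per library) in knockout replicates 1, 2 and 3, against 30498, 21210 and 23241 in wild-type replicates 1, 2 and 3. It was lower in the knockout (log2 difference -0.71 ± 0.20 SE, limma adjusted p = 0.0134) but was still read. Wild-type replicates 2 and 3 stood apart. Processed pseudogenes took 0.104% to 0.118% of reads in the knockout, against 0.144%, 1.07% and 0.530% in wild-type replicates 1, 2 and 3. The summed level of 9 stratified squamous markers was 625 to 754 normalized counts in the knockout, against 750, 9676 and 3458 in wild-type replicates 1, 2 and 3. Like sums can hold different genes. Ivl gave 282, 308 and 405 of the sum in knockout replicates 1, 2 and 3, against 0, 0 and 1.94 in wild-type. Krt5, Krt14, Krt15 and Krt17 were lower in the knockout.

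Among the 10 members 9 were higher in the knockout and none was lower (limma, adjusted p under 0.05 over all 17432 genes). Over all genes tested 23.3% were called higher and 44.7% in either direction. The 3 knockout values lay above the 3 wild-type values for the same 9 members, against 28.1% of all tested genes. The changes were unequal. The IkB-like genes Bcl3 and Nfkbiz rose most, Nfkb2, Relb and Birc3 came next, and Rela and Nfkb1 rose least. Nfkbia, the inhibitor gene, was the exception, with a level below the wild-type mean in each knockout library. The median log2 difference of the members was 0.90, against -0.015 for all tested genes. Log2 differences are of log2(normalized count + 1), knockout minus wild-type. Of the members 5 were called with a log2 difference of at least 1, against 11.2% of all tested genes. In bulk RNA of a captured region, fewer cells of a type and less RNA per cell cannot be told apart.

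**Figure D1:**
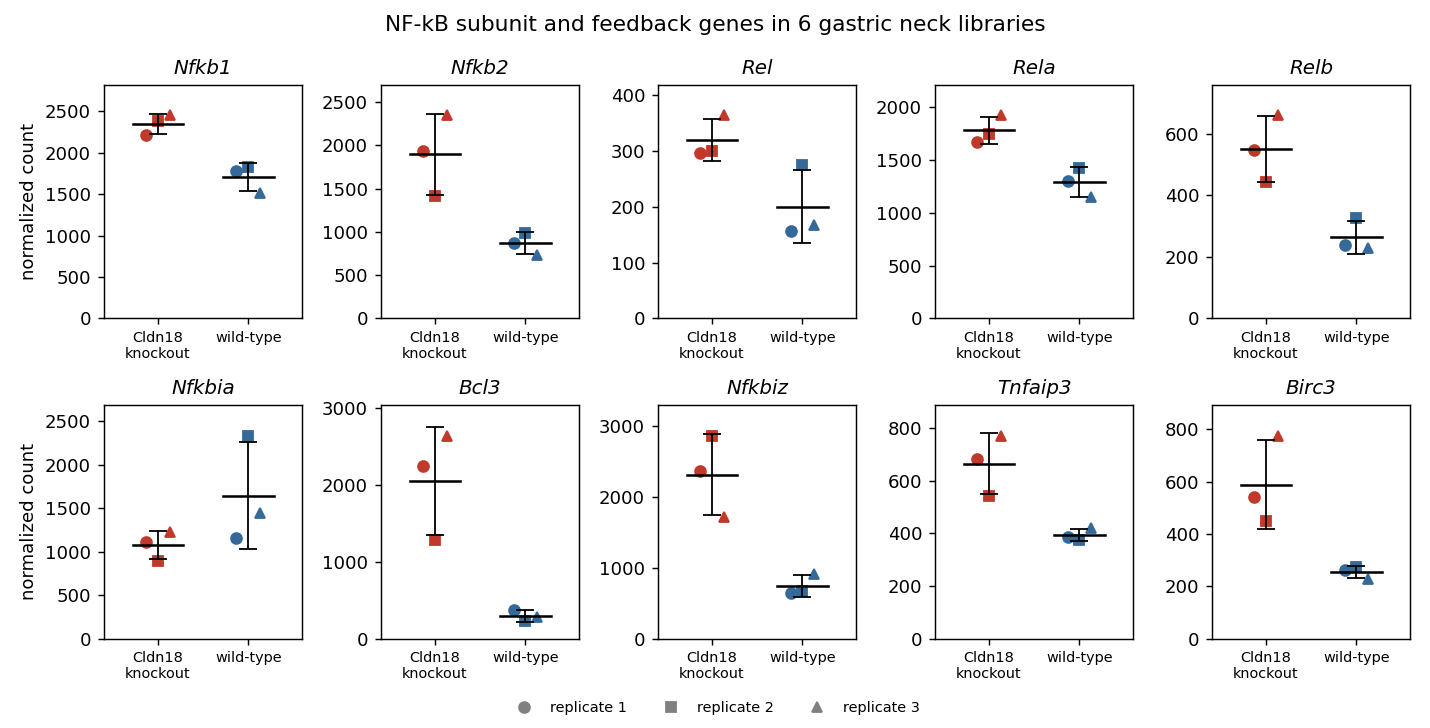
Normalized counts (linear axes from 0) of each member in the 3 Cldn18 knockout libraries (red, left) and the 3 wild-type libraries (blue, right). Points are libraries, with a shape for each replicate number; bars are the mean and SD. The groups are separate in 9 panels and overlap for Nfkbia.

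The subunit genes of the first branch rose modestly. Rela encodes p65, the subunit with the strongest activating domain (chr19:5637483-5648130, plus strand, mm10). It had 1670, 1741 and 1919 normalized counts in knockout replicates 1, 2 and 3, against 1299, 1425 and 1147 in wild-type replicates 1, 2 and 3. The groups did not overlap, and the log2 difference was 0.46 ± 0.14 (SE; limma adjusted p = 0.0198). Nfkb1 encodes p105, the precursor of p50 (chr3:135584655-135691547, minus strand). It had 2213, 2380 and 2449 in the knockout libraries, against 1782, 1821 and 1509 in wild-type. Each knockout library was again above each wild-type one, by a log2 difference of 0.47 ± 0.13 (SE; limma adjusted p = 0.0163). Rel encodes c-Rel, best known from lymphoid cells (chr11:23736847-23770970, minus strand). It had 297, 299.9 and 363 in the knockout libraries, against 157, 275 and 168 in wild-type. Wild-type replicate 2 came close to the knockout values, and the log2 difference was 0.72 ± 0.25 (SE; limma adjusted p = 0.0382).

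These 3 calls were the least secure of the 9. Those of Nfkb1 and Rela were lost without knockout replicate 2 (limma adjusted p = 0.0538 and 0.0518), knockout replicate 3 (0.0664 and 0.0865) or wild-type replicate 3 (0.0581 and 0.0705), and in the authors' deposited table (adjusted p = 0.137 and 0.153). Rel lost its call when any library other than wild-type replicate 2 was left out, with limma adjusted p up to 0.135 without knockout replicate 3, and in the authors' deposited table (adjusted p = 0.0877). Members called higher then numbered 6 without knockout replicate 2, knockout replicate 3 or wild-type replicate 3. The directions were kept in each of these fits.

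The subunit genes of the second branch rose about 2-fold. Nfkb2 encodes p100, the precursor of p52 (chr19:46304320-46312385, plus strand). Its levels were 1934, 1414 and 2346 normalized counts in knockout replicates 1, 2 and 3, against 878, 992 and 735 in wild-type replicates 1, 2 and 3. The lowest knockout library was above the highest wild-type one, and the log2 difference was 1.11 ± 0.20 (SE; limma adjusted p = 0.00118). Relb encodes the partner of p52 (chr7:19606217-19629438, minus strand). It had 548, 444 and 660 in the knockout libraries, against 237, 326 and 230 in wild-type, with no overlap (log2 difference 1.05 ± 0.22 SE, limma adjusted p = 0.00260). Exons of Nfkb2 overlap those of Psd, a gene on the opposite strand, and whether the counting used strand is not stated. Psd had 365, 273 and 336 normalized counts in the knockout libraries, against 138, 143 and 161 in wild-type, so reads of the shared stretch cannot be told apart.

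**Figure D2:**
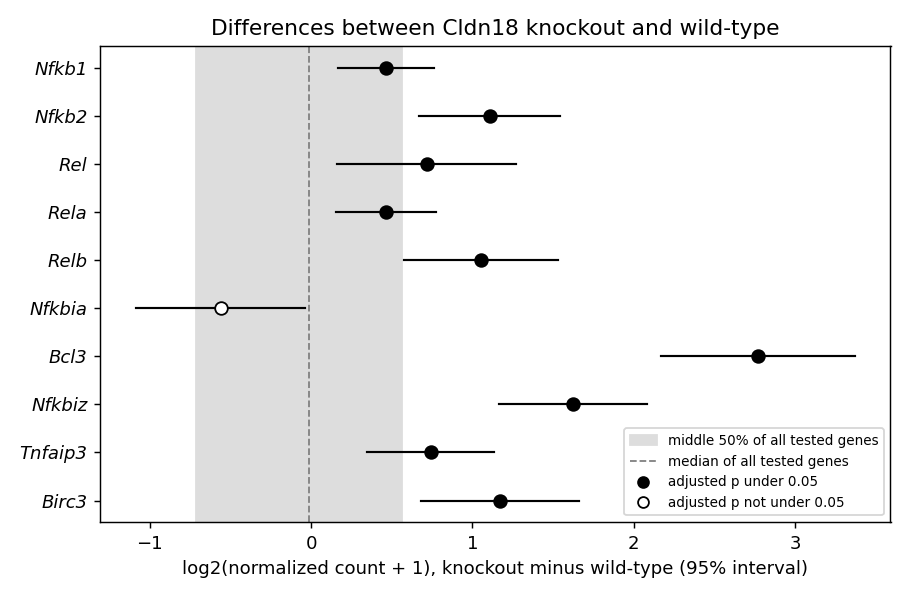
Log2 difference (log2(normalized count + 1), knockout minus wild-type) of each member with its 95% interval. Filled points passed the test and the open point (Nfkbia) did not; the grey band spans the middle 50% of all tested genes, from -0.71 to 0.57, and the dashed line is their median of -0.015.

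Within libraries, Nfkb2 was set against Nfkb1 and Relb against Rela. The log2 ratio of Nfkb2 to Nfkb1 normalized counts averaged -0.34 ± 0.37 in the knockout and -0.98 ± 0.09 in wild-type (SD, n = 3 each; exact permutation p = 0.1). That of Relb to Rela averaged -1.70 ± 0.23 in the knockout and -2.29 ± 0.16 in wild-type (SD, n = 3 each; exact permutation p = 0.1). Neither pair of groups overlapped, but 3 libraries against 3 cannot give a two-sided p below 0.1. The adjusted p over the 4 ratios examined was also 0.1 for each. A ratio within a library does not depend on the size factors.

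Levels per kb of exon (the union of GENCODE M21 exons, which exceeds the length of a single transcript, most of all for Nfkb1 at 12.1 kb) allow a rough ranking. Among the 5 subunit genes Rela made up 42.4% ± 3.3 of the summed level per kb in the knockout and 49.7% ± 0.89 in wild-type (SD, n = 3 each). Nfkb2 made up 29.9% ± 4.2 in the knockout and 22.4% ± 0.60 in wild-type, while Rel stayed lowest, at 3.13% in each group. Across all 10 members Bcl3 was sixth from the top in wild-type, at 119 ± 30 normalized counts per kb, and first in the knockout, at 831 ± 284 (SD, n = 3). The knockout values of Bcl3 (517 to 1068 per kb) overlapped those of Nfkbia (557 to 758), Rela (544 to 625) and Nfkbiz (342 to 571). In knockout replicate 2, Bcl3 (517) was below Nfkbiz (571), Rela (567) and Nfkbia (557), so its first rank is one of means. In wild-type, Nfkbia stood first at 719 to 1450 per kb and Rela second at 373 to 464, without overlap. The next 4, Nfkb2, Nfkbiz, Nfkb1 and Bcl3, overlapped with their neighbours in wild-type. Rel was last in both groups, reaching at most 48.7 per kb in the knockout and 36.9 in wild-type, below all values of the other members.

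Bcl3 rose most. Its product is an IkB-like protein of the nucleus that binds pairs of p50 or p52 (chr7:19808462-19822770, minus strand). Levels were 2249, 1279.6 and 2643 normalized counts in knockout replicates 1, 2 and 3, against 376, 230 and 276 in wild-type replicates 1, 2 and 3. The ratio of the group means was 7.00, and knockout replicate 2 was the lowest of the 3 while still 3.405 times the highest wild-type value. The log2 difference was 2.77 ± 0.27 (SE; limma adjusted p = 2.57e-05). The log2 ratio of Bcl3 to Nfkb1 averaged -0.25 ± 0.56 in the knockout and -2.56 ± 0.38 in wild-type (SD, n = 3 each; exact permutation p = 0.1, the smallest possible). Exons of Bcl3 overlap Gm16175, an antisense gene with at most 6 reads in any library. Nfkbiz encodes IkB-zeta, a nuclear cofactor needed for a part of NF-kB targets (chr16:55811375-55838899, minus strand). It had 2365, 2866 and 1717 in the knockout libraries, against 641, 675 and 916 in wild-type. The groups were far apart, with a log2 difference of 1.62 ± 0.21 (SE; limma adjusted p = 0.000148).

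Nfkbia encodes IkB-alpha, the inhibitor that NF-kB itself induces in most cells (chr12:55489410-55492647, minus strand). It did not rise. It had 1112, 896 and 1221 normalized counts in knockout replicates 1, 2 and 3, against 1158, 2334 and 1444 in wild-type replicates 1, 2 and 3. The groups overlapped, since knockout replicate 3 was above wild-type replicate 1. The log2 difference of -0.56 ± 0.24 (SE) had a 95% interval of -1.09 to -0.035 and did not pass the test over all genes (unadjusted p = 0.0387, limma adjusted p = 0.0785). Wild-type replicate 2 held much of this difference: without it the log2 difference was -0.28 (adjusted p = 0.24), and without wild-type replicate 1 it was -0.78 and called lower (adjusted p = 0.0115). The order of the wild-type libraries for Nfkbia, with replicate 2 highest and replicate 1 lowest, was that of their squamous marker sums and processed pseudogene shares; the part of these in the result was not tested. With the single wild-type library 1 left, Nfkbia stood at a log2 difference of -0.12 (adjusted p = 0.69). The ratio of Nfkbia to Rela separated the groups in all libraries, with log2 ratios of -0.59, -0.96 and -0.65 in knockout replicates 1, 2 and 3, against -0.17, 0.71 and 0.33 in wild-type replicates 1, 2 and 3 (exact permutation p = 0.1, the smallest possible).

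The genes for the ubiquitin enzymes rose. Tnfaip3 encodes A20, which edits ubiquitin chains and shuts off signalling to IkB kinase (chr10:19000910-19015657, minus strand). It had 681, 542 and 771 normalized counts in knockout replicates 1, 2 and 3, against 384, 375 and 421 in wild-type replicates 1, 2 and 3. The wild-type values were tightly grouped and below each knockout value (log2 difference 0.74 ± 0.18 SE, limma adjusted p = 0.00637). Birc3 encodes cIAP2, a ubiquitin ligase of the tumour necrosis factor receptor complex that also restrains NIK (chr9:7848699-7873186, minus strand). Its levels were 541, 449 and 777 in the knockout libraries, against 262, 275 and 229 in wild-type, without overlap (log2 difference 1.17 ± 0.22 SE, limma adjusted p = 0.00165). Birc2, which encodes the related cIAP1 and was singled out after its values were seen, moved the other way. It had 278, 329 and 350 in the knockout libraries, against 578, 548 and 483 in wild-type (log2 difference -0.75 ± 0.18 SE, limma adjusted p = 0.00559).

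**Figure D3:**
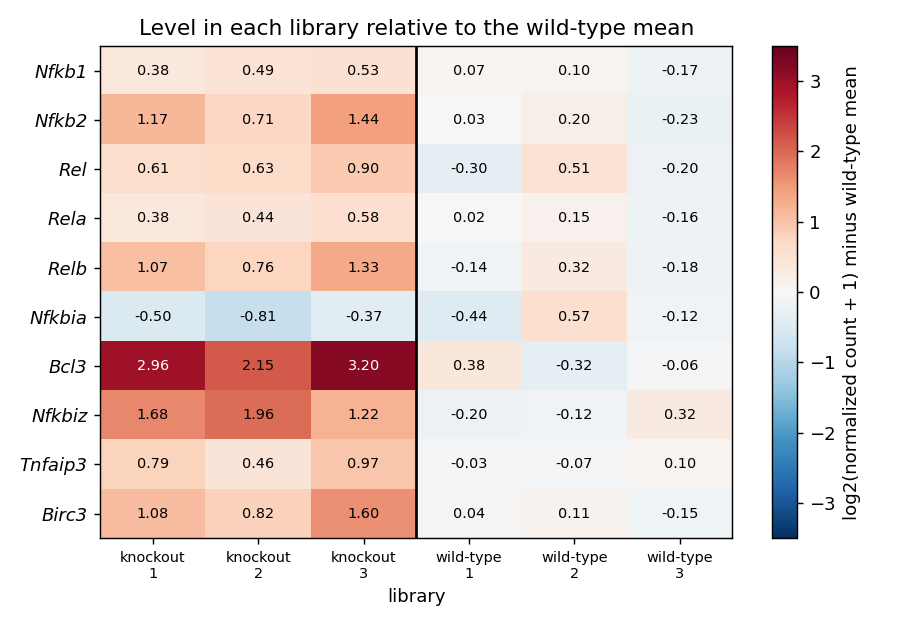
Level of each member in each library as log2(normalized count + 1) minus the wild-type mean, with knockout libraries left of the line and wild-type libraries right of it. Bcl3 reaches 2.96, 2.15 and 3.20 in knockout replicates 1, 2 and 3, while Nfkbia is at -0.50, -0.81 and -0.37.

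The knockout libraries differed among themselves in an order that only part of the members shared. Replicate 3 was the highest knockout library for 9 of the 10 members, as for 40.9% of all tested genes. Replicate 2 was the lowest for 6 members (Nfkb2, Relb, Nfkbia, Bcl3, Tnfaip3 and Birc3), as for 38.1% of tested genes. Nfkb1, Rel and Rela were lowest in replicate 1. Nfkbiz ran the other way, highest in replicate 2 and lowest in replicate 3. Among wild-type libraries, replicate 2 was the highest for 7 members, as for 34% of tested genes. The spread within the knockout was widest for Bcl3, whose highest library was 2.07 times its lowest, and narrowest for Nfkb1, at 1.11 times. In wild-type it was widest for Nfkbia, at 2.02 times.

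Several of these genes are also used by immune and endothelial cells, and markers of both moved with genotype. Of 12 macrophage and myeloid markers 8 were higher in the knockout and none lower, with summed levels of 6728, 5429 and 10193 normalized counts in knockout replicates 1, 2 and 3, against 4158, 3818 and 2921 in wild-type replicates 1, 2 and 3. The knockout libraries thus stood in the order seen for Nfkb2, Relb, Bcl3, Tnfaip3, Birc3 and Nfkbia. A lowest knockout replicate 2 was not particular to myeloid markers. It was also lowest in the surface pit cell and stratified squamous marker sums, where knockout replicates 1 and 3 were nearly level. These 2 replicates were at 582633 and 583200 for pit cells and at 743 and 754 for squamous markers. Of 7 endothelial markers tested of 8, 6 were lower, with sums of 1687 to 2293 in the knockout and 4314 to 6748 in wild-type. Lymphocyte markers were low: 10 T and NK cell markers summed to 140 to 219 in the knockout and 90.1 to 137 in wild-type, and 8 B and plasma cell markers to 78.8 to 295 in the knockout and 93.2 to 115 in wild-type. No T, NK, B or plasma cell marker tested was called. Of 8 neutrophil markers only Csf3r passed the filter (called higher), and it did so only with its knockout values. The 8 summed to 46.1 to 68.9 in the knockout and 46.9 to 69.9 in wild-type, and Ly6g was at 0 in all 6 libraries. Of 6 dendritic cell markers 1 was higher and 1 lower, with sums of 319 to 397 in the knockout and 278 to 406 in wild-type. The part of these cells in the members' levels was not tested.

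The epithelial makeup differed as well. Parietal cell markers (7 of 7 lower) summed to 3564 to 10304 normalized counts in the knockout and 402507 to 523257 in wild-type, and chief cell markers (6 of 6 lower) to 39928 to 74333 in the knockout and 1815244 to 3011629 in wild-type. Mucous neck cell markers, named for the labelled region, were read in all libraries, with 4 of 6 higher and 1 lower. They summed to 90221 to 187946 in the knockout and 76629 to 99006 in wild-type. Most of these sums was Tff2, which was not called. The lower one was Muc6, with a mean of 9729 in the knockout and 30908 in wild-type. The sums therefore do not show that the same neck cells were captured in both groups. Surface pit cell markers summed to 336863 to 583200 in the knockout and 882458 to 1496345 in wild-type, with 1 of 6 higher and 3 lower. Of 7 fibroblast markers 3 were higher, at sums of 27600 to 48866 in the knockout and 23255 to 38848 in wild-type, and of 6 smooth muscle markers 3 were lower, at 8439 to 10061 in the knockout and 9526 to 13760 in wild-type. Of 8 squamous markers tested, 1 was higher and 4 lower. The higher one, Ivl, passed the filter only with its knockout values. Without wild-type libraries 2 and 3, which leaves a single wild-type library assumed to vary like the knockout ones, 7 of the 10 members were still called higher. Nfkb1 (log2 difference 0.40, adjusted p = 0.0755) and Rela (0.45, adjusted p = 0.0611) were not.

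The rest of the pathway was read from 7 lists with 140 genes, of which 123 passed the filter. Of these 53 were higher and 7 lower, against 23.3% higher and 21.5% lower among all tested genes. The lists were set with earlier results of these data known, so their counts are a description and not a test. A gene can pass the filter on 1 group alone, and one that passes on its knockout values could hardly be called lower. Of the genes called higher, the ligands Il1a, Il1rn and Ltb and the receptor Il18rap passed only with their knockout values. So did several targets named below. Of the 4 other IkB genes only Nfkbib was called, with 824, 660 and 964 normalized counts in knockout replicates 1, 2 and 3, against 613, 494 and 447 in wild-type replicates 1, 2 and 3 (log2 difference 0.65 ± 0.19 SE, limma adjusted p = 0.0174). None of the 4 was called without knockout replicate 1, knockout replicate 3, wild-type replicate 3 or wild-type libraries 2 and 3, and 2 were called without wild-type replicate 1. Of 11 genes of IkB kinase and the kinases around it 3 were higher and none lower (median log2 difference 0.26). The share of higher genes was near the 23.3% of all tested genes. Ikbke, which encodes an IkB kinase relative, had 819, 490 and 774 in the knockout libraries, against 373, 282 and 371 in wild-type (log2 difference 0.995 ± 0.23 SE, limma adjusted p = 0.00461). Map3k14, which encodes NIK, rose by 0.78 ± 0.20 and Ikbkb, the kinase of the first branch, by 0.66 ± 0.14 (log2 difference ± SE). edgeR called 5 of these 11 genes higher, against 24.8% of all tested genes. After quantile normalization or upper quartile scaling 3 of the 11 were called lower, against 20.3% and 25.8% of all tested genes under these scalings, and without wild-type replicate 1 it was 1.

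Of 28 adaptor and ubiquitin genes 10 were higher, and Birc2, given above, was the only lower one (median log2 difference 0.35). Card10, a scaffold that links receptors to IkB kinase in epithelial cells, had 2423, 2530 and 2507 normalized counts in knockout replicates 1, 2 and 3, against 1104, 856 and 929 in wild-type replicates 1, 2 and 3. The log2 difference was 1.38 ± 0.14 (SE; limma adjusted p = 3.36e-05). Irak4 and Irak2, kinases downstream of interleukin-1 and Toll-like receptors, rose by 1.29 ± 0.24 and 1.01 ± 0.19, and Traf3, which restrains NIK, by 0.99 ± 0.15 (log2 difference ± SE). Without wild-type libraries 2 and 3 the list had 5 higher genes, and without wild-type replicate 1 or 3 it had 2 lower ones.

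Of 17 genes listed as other negative regulators 4 were higher and 4 lower (median log2 difference 0.28). The list is broad and includes Peli1 and Traf3ip2, so a lower listed gene is not read as loss of an inhibitor. These shares were close to the 23.3% higher and 21.5% lower among all tested genes, so the counts do not set the list apart. Tnip3, which encodes a partner of A20, had 77.4, 70.2 and 152 normalized counts in knockout replicates 1, 2 and 3, against 11.02, 12.3 and 22.3 in wild-type replicates 1, 2 and 3 (log2 difference 2.61 ± 0.47 SE, limma adjusted p = 0.00122). Zc3h12a, an RNase that degrades inflammatory mRNAs, rose by 1.42 ± 0.19 and Otud7b, a deubiquitinase, by 0.84 ± 0.16 (log2 difference ± SE). Peli1, a ubiquitin ligase gene, was at 1195, 1367 and 1487 in the knockout libraries, against 1821, 4175 and 2369 in wild-type (log2 difference -0.96 ± 0.26 SE, limma adjusted p = 0.0108). The other 3 lower genes, named after their values were seen, were Itch, Tax1bp1 and Rnf11, whose products are known to work with A20. Their log2 differences were -0.47, -0.48 and -0.56. The lower calls of this list were fragile, with 1 left without knockout replicate 1, without knockout replicate 2, without wild-type replicate 2 or without wild-type libraries 2 and 3, and 0 in the authors' deposited table or with limma without a mean trend.

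**Figure D4:**
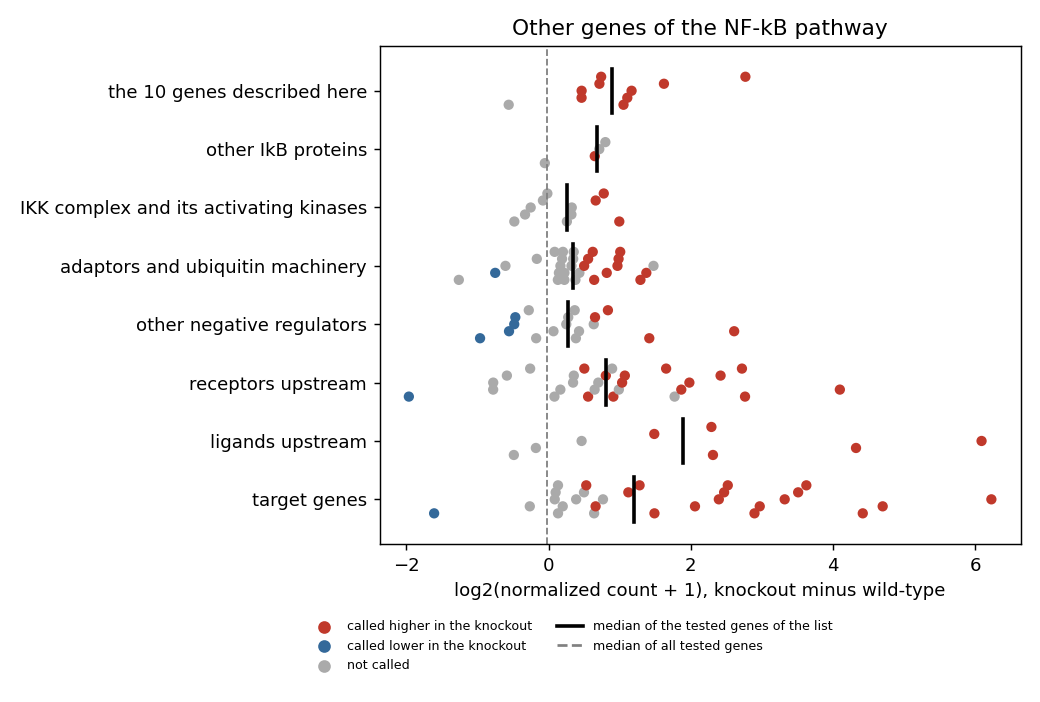
Log2 differences (log2(normalized count + 1), knockout minus wild-type) of the 10 members and of the 123 tested genes of the other 7 lists, 1 point per gene, coloured by call. Black bars are the medians of each list, from 0.26 for the kinases to 1.89 for the ligands, and the dashed line is the median of all tested genes. The ligand and target medians lean on genes that passed the filter only with their knockout values.

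The lists of upstream receptors and ligands included genes with a log2 difference above that of any member. Not all of them feed the pathway, since the ligand list also counts the antagonist gene Il1rn. Of 27 receptor genes tested 13 were higher and 1 lower (median log2 difference 0.81). Tnfrsf12a, the receptor of TWEAK and an activator of the second branch, had 5849, 4167 and 5762 normalized counts in knockout replicates 1, 2 and 3, against 360, 315 and 245 in wild-type replicates 1, 2 and 3 (log2 difference 4.10 ± 0.19 SE, limma adjusted p = 1.88e-07). Il1rl1, the receptor of interleukin-33, rose by 2.76 ± 0.46, Cd14, a co-receptor for bacterial lipopolysaccharide, by 2.72 ± 0.21, and Il1r1, the signalling receptor of interleukin-1, by 2.42 ± 0.18 (log2 difference ± SE). The lower gene, named after its values were seen, was Nod1, a sensor of bacterial cell wall pieces, at 165, 114 and 132 in the knockout libraries, against 581, 510 and 505 in wild-type (log2 difference -1.96 ± 0.21 SE, limma adjusted p = 4.30e-05). Receptor genes called lower numbered 2 without knockout replicate 2 or wild-type replicate 2. Only 8 of 16 ligand genes passed the filter, and of these 5 were higher and none lower; without wild-type libraries 2 and 3 it was 3 higher and 1 lower. Of the 5 higher ligand genes, Il1a, Il1rn and Ltb passed the filter only with their knockout values and could hardly be called lower. The count and the median of the ligand list therefore lean on them. Tnf was under the filter, at 9.44, 8.87 and 30.8 in the knockout libraries, against 0, 4.94 and 19.4 in wild-type. Il1rn, which encodes the interleukin-1 receptor antagonist, had 733, 462 and 1322 in the knockout libraries, against 13.5, 7.41 and 10.7 in wild-type (log2 difference 6.09 ± 0.40 SE, limma adjusted p = 2.05e-06). Il33 rose by 2.31 ± 0.43, Il1b by 2.29 ± 0.47 and Il1a, with at most 7.77 normalized counts in wild-type, by 4.32 ± 0.86 (log2 difference ± SE).

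Of 36 genes listed as NF-kB targets, 28 passed the filter, 17 were higher and 1 was lower (median log2 difference 1.202). Of the higher genes, Cxcl1, Cxcl5, Cxcl10, Ccl2, Ccl20, Bcl2a1b, Bcl2a1d, Mmp9 and Saa3 passed the filter only with their knockout values. Such genes could hardly be called lower, so the count and the median lean on them. Pigr, the transporter of secreted antibodies, had 8895, 9357 and 9277 normalized counts in knockout replicates 1, 2 and 3, against 72.2, 142 and 174 in wild-type replicates 1, 2 and 3 (log2 difference 6.23 ± 0.27 SE, limma adjusted p = 1.20e-07). Mmp9, a matrix protease gene, rose by 4.70 ± 0.72 and Saa3, an acute phase gene, by 3.63 ± 0.82 (log2 difference ± SE), both at under 16 normalized counts in each wild-type library. Bcl2a1d, a survival gene with near-identical copies whose reads are uncertain, rose by 4.42 ± 1.19; it was read in wild-type replicate 1 (29.4 normalized counts) and was at 0 in wild-type replicates 2 and 3. The lower gene was Sod2, the mitochondrial superoxide dismutase, at 2653, 2241 and 2612 in the knockout libraries, against 8356, 7562 and 6984 in wild-type (log2 difference -1.61 ± 0.14 SE, limma adjusted p = 1.16e-05). It was named after its values were seen. Reads of the mitochondrial genome took 1.25% to 1.56% of reads in the knockout and 3.28% to 4.28% in wild-type. The 8 listed targets that did not pass the filter were Cxcl2, Cxcl3, Ccl5, Sele, Il6, Csf2, Csf3 and Lcn2. The list had 11 higher genes without knockout replicate 3 or without wild-type libraries 2 and 3.

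The genes most like the members in their course over the 6 libraries were found by the root mean square distance between log2 profiles centred on their own means, among 13235 genes. Nfkb1, the member with the highest mean level, lay nearest to Sephs2 (0.037), Rnpep (0.038) and Dr1 (0.040). Bcl3, the member with the largest difference, lay nearest to Cxcl16 (0.13), Hs3st1 (0.15) and Ly6g6c (0.16). Cxcl16, a chemokine gene of the target list, had 1587, 1103 and 2446 normalized counts in knockout replicates 1, 2 and 3, against 288, 175 and 203 in wild-type replicates 1, 2 and 3. Like Bcl3, it was highest in knockout replicate 3, lowest among the knockout libraries in replicate 2, and highest among the wild-type libraries in replicate 1.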

How the data were processed

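STAR, featureCounts, DESeq and the build mm10 are named in the submitters' processing notes; their roles and versions, the annotation and the strandedness are not stated there. The authors deposited a signal, which its values show to be read counts per gene divided by a size factor for each library. The values were whole multiples of 1 number per library within 0.05 reads (100% of values), so the reads were recovered. The authors deposited a second table, of knockout against wild-type, that gives group means, a fold change (a ratio) and a p-value with an adjusted p, and served as an alternative.

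The main test was limma 3.58.1 (R 4.3.3; mean trend, two-sided) on log2(normalized count + 1) with Benjamini-Hochberg adjustment over the 17432 genes with at least 10 in at least 3 of 6 libraries. Fits that left out libraries kept this gene set. edgeR 4.0.16 and DESeq2 1.42.0 were run on recovered reads and called 4323 and 3895 genes higher in the knockout, against 4053 with limma. The procedure was tested on simulated data. Ratios of 2 members were compared by exact permutation over libraries. Replicates differed by more than sampling noise. Coordinates and exon lengths came from GENCODE M21 and promoters from RefSeq (GRCm38.p6). All 140 other pathway genes were found in the table, older symbols through RefSeq.

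Members and lists were chosen with earlier results of these data known. Named besides the members were up to 4 called genes per list with the largest log2 differences (the group with the higher mean had to reach 50), and the 3 nearest profiles of 2 members. The called pathway genes Birc2, Itch, Tax1bp1, Rnf11, Nod1 and Sod2 were named after their values were seen.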

Additional observations from a re-analysis of the deposited data

How the results depend on the processing

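Bcl3, Nfkbiz, Nfkb2, Relb, Birc3 and Tnfaip3 were called higher in all 19 alternatives, and no member changed direction in any. With 1 library left out, log2 differences ranged from 0.38 to 0.52 for Nfkb1, 0.38 to 0.54 for Rela, 0.56 to 0.97 for Rel, and -0.78 to -0.28 for Nfkbia, and members called lower numbered 0 to 1. Calls were lost without the mean trend for Nfkb1 (0.47, adjusted p = 0.0522), Rel (0.72, 0.0712) and Rela (0.46, 0.0583), and in the authors' deposited table for Nfkb1 (0.46), Rel (0.68) and Rela (0.46). Without wild-type libraries 2 and 3, Nfkb1 (0.40) and Rela (0.45) lost theirs and genes called lower numbered 2488, with 1 wild-type library left. Rel also lost its call with DESeq2 (0.65, adjusted p = 0.0509) and upper quartile scaling (0.58, 0.0689). Nfkbia was called lower, as 1 member, with DESeq2 (-0.64, adjusted p = 0.0234), array weights (-0.53, 0.0335), quantile normalization (-0.70, 0.0292) and upper quartile scaling (-0.70, 0.0261). The cause was not tested. Genes called lower were 3743, against 2024 in the authors' deposited table. Quantile normalization moved the median log2 difference of all genes to 0.10 and upper quartile scaling to -0.15, against -0.015. Of the list counts under alternatives, 34 moved by over 1.5 times and 232 did not.

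No pairing by replicate number was seen: the deviations of libraries that share a number correlated at -0.0037, 0.021 and -0.17, and none had its highest correlation with its namesake. With the replicate block 9 members were higher and 0 lower, with 3726 genes higher and 3626 lower, and no member's call changed.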
